A study of Homo sapiens with 9 samples.

Results

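The genes described here were the matrix metalloproteinases (MMP), the ADAM and ADAMTS metalloproteinases and the tissue inhibitors of metalloproteinases (TIMP), as expressed in U251 cells after lentiviral delivery of an sh-RNA. The members were all rows of the expression table whose gene symbol was MMP, ADAM, ADAMTS or TIMP followed by a number. This gave 66 of 22295 rows, with 23 MMP, 4 TIMP, 20 ADAM and 19 ADAMTS genes. U251 is an established cell line from a human glioblastoma. The 9 RNA-seq libraries formed 3 groups of 3. The sh-Luci-3d cells were infected for 3 days with a lentivirus carrying a control sh-RNA against luciferase, and cells of sh-Ptbp1-3d or sh-Ptbp1-7d were infected for 3 or 7 days with a lentivirus carrying an sh-RNA against PTBP1. These groups are called the controls, the 3 dpi knockdown and the 7 dpi knockdown (dpi, days post infection). Neuronal induction medium was given from 2 dpi. None of the 9 libraries was a control of 7 dpi. In any comparison with the 7 dpi knockdown, the knockdown, the additional days and the longer time in induction medium cannot be told apart. All libraries came from a single cell line, the labels do not say whether replicates were separate cultures, and p-values measure only the spread between these libraries.

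The metzincin proteases share a zinc ion in the active site, held by histidines of a conserved motif. MMPs are made as inactive proforms and cut collagens, laminins and other matrix proteins once their propeptide is removed, and TIMPs block their active site. ADAMs are mostly membrane-bound sheddases that release growth factors, cytokines and receptor ectodomains from the cell surface, although several have lost the zinc-binding motif and act in adhesion. ADAMTS enzymes are secreted and cut proteoglycans or procollagens. In glioma, MMP2 and its membrane-bound activator MMP14 are known for their part in invasion through the brain matrix.

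Values were deposited as FPKM (fragments per kilobase of each transcript, relative to all mapped fragments), which are per length, and the levels of different genes can therefore be compared. FPKM summed to between 367412 and 404922 per library, and the read depth behind them is unknown. Changes were tested with limma on log2(FPKM + 0.1) over 15551 genes whose mean reached 0.1 FPKM. A gene passed when its fold change was above 2 and its FDR (Benjamini-Hochberg adjusted p) was below 0.05 for the 3 dpi knockdown against controls, or below 0.01 for the comparisons with the 7 dpi knockdown. The targeted PTBP1 was at 115.7 ± 7.58 FPKM in controls, 63.9 ± 2.67 FPKM in the 3 dpi knockdown and 50.5 ± 0.645 FPKM at 7 dpi (SD, n = 3 each), without overlap between groups. Of 8 glial markers, VIM, SOX2, NES, SOX9 and CD44 had group means above 30 FPKM throughout, FABP7 had means of 1.09 to 6.16 FPKM, and the astrocytic GFAP and S100B had means of 0.347 to 0.586 and 0.115 to 0.797 FPKM. Their sum was 4459 to 4586 FPKM in controls, 4583 to 4879 FPKM in the 3 dpi knockdown and 1387 to 1510 FPKM at 7 dpi, mostly through VIM, whose mean was 4381 FPKM in the 3 dpi knockdown and 1169 FPKM at 7 dpi (log2 fold change -1.91, adjusted p = 9.79e-08). From 3 to 7 dpi CD44 also fell (log2 fold change -1.41, adjusted p = 1.12e-06), whereas S100B rose (2.08, adjusted p = 0.00202). SOX2, NES, SOX9, FABP7 and GFAP did not pass, with 0.22 for SOX2 and negative values for the others. Against controls SOX2 had a log2 fold change of 0.46 at 7 dpi (adjusted p = 0.00184), under the fold threshold. The part of these marker changes in the 7 dpi changes below was not tested. The 6 blood and immune markers summed to at most 0.107 FPKM in any library.

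Promoters were examined first, with sequences from RefSeq (GRCh38.p14). An entry was found for 39 of the 66 members, and the 250 bases before the transcription start were searched on both strands. TGAGTCA (or TGACTCA), the AP-1 site known from several MMP promoters, was present in 1 of the 39 members, MMP7, and in 5.19% of the promoters of all 27305 genes. The cAMP response element TGACGTCA was found in 0 of the 39 and in 2.03% of all. AGGAAG (or CTTCCT), a core of ETS-family sites, was found in 9 of the 39 and in 32.9% of all. GGGCGG (or CCGCCC), the GC box, was found in 26 of the 39 and in 46.2% of all. Matches are a description of these letters and not of bound sites.

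Windows on the chromosome that carries ADAM9 and ADAM28 were left out by their position, before any comparison with exons. Of the 12 members that differed between 7 and 3 dpi, 7 had a RefSeq promoter window elsewhere that was compared with annotated exons. The other members, with ADAM9 and ADAM28 among them, were not examined. In 4 of these 7 the window held no annotated exonic base, and these are shown since they include 2 genes that fell (ADAM12 and ADAM19) and 2 that rose (ADAM23 and ADAMTS14). The search for the GC box and the selection of these windows were made after the values had been seen. Each window is written 5′ to 3′ on the strand of the gene, and capitals mark GC boxes in either orientation. They lie at chr10:126388478-126388727 (minus strand) for ADAM12, chr5:157575776-157576025 (minus strand) for ADAM19, chr2:206443282-206443531 (plus strand) for ADAM23 and chr10:70672256-70672505 (plus strand) for ADAMTS14.
ADAM12: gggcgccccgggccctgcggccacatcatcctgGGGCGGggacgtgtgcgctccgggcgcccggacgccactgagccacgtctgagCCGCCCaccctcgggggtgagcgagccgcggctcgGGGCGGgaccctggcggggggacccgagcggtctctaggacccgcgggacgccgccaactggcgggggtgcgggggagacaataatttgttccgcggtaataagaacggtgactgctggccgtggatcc
ADAM19: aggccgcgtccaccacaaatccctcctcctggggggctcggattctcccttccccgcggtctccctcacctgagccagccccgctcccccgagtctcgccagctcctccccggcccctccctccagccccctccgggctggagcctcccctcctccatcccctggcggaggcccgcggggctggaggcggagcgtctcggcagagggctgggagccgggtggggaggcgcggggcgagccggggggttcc
ADAM23: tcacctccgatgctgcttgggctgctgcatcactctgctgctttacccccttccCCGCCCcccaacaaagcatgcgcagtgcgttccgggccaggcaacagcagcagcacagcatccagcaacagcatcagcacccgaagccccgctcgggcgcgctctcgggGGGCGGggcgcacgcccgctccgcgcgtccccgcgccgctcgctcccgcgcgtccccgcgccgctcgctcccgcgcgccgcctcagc
ADAMTS14: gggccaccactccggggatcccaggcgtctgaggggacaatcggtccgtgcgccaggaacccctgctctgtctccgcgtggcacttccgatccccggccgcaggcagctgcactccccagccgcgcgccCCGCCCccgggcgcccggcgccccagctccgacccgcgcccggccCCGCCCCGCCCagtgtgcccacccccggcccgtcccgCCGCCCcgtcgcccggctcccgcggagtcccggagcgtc
Their GC content was 73.6%, 76.4%, 73.6% and 80.4% in this order, and they held 3, 0, 2 and 4 GC boxes. With 2 falling and 2 rising genes, these letters cannot show or exclude a relation to the direction of change, which was not tested.

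Most of the 66 genes were weakly expressed. Only 41 reached a mean of 0.1 FPKM and were tested, 25 reached a mean of 1 FPKM in some group, 12 reached 5 FPKM and 5 reached 50 FPKM (MMP2, TIMP1, TIMP2, ADAM9 and ADAM15). Among the 25 genes that were not tested, 8 were listed at 0 in every library and the highest value in any library was 0.272 FPKM. The untested genes included all collagenases (MMP1, MMP8 and MMP13), the gelatinase MMP9, the matrilysins MMP7 and MMP26, the metalloelastase MMP12, and TIMP3, which was above 0 in 2 libraries and at most 0.059 FPKM. A cluster of 9 MMP genes on chromosome 11, from 102520508 to 102955734 (MMP7, MMP20, MMP27, MMP8, MMP10, MMP1, MMP3, MMP12 and MMP13, 435.2 kb, GENCODE v29 on GRCh38), held 0 tested genes. Within it MMP7 was at 0.123, 0.272 and 0.150 FPKM in controls, was listed at 0 in the 3 libraries of the 3 dpi knockdown, and was at 0, 0.038 and 0 FPKM at 7 dpi.

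The first question was whether the knockdown changed these genes by 3 dpi. Between the 3 dpi knockdown and the controls, 0 of the 41 tested members passed both thresholds, against 0.0129% of all tested genes (2 genes). The FDR alone was passed by 0 members, against 0.0322% (5 genes). PTBP1 itself passed only the FDR (log2 fold change -0.85, adjusted p = 0.00314). The paper, at the same fold and FDR cut-offs, reports many more changed genes. A count of 0 here therefore does not show that the members were unchanged. At an unadjusted p under 0.05 there were 4 members (MMP15, ADAM8, ADAM9 and ADAM15), against 7.24% of all genes. The 2 groups were without overlap for 5 of the 41, against 10.8% of all genes. These shares are close to the background and name no group of members.

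For 3 of these 4 members the FDR turned on one control library. MMP15, a membrane-type MMP, was at 1.27, 1.47 and 1.65 FPKM in controls and 2.28, 2.35 and 2.54 FPKM in the 3 dpi knockdown, a log2 fold change of 0.68 (SE 0.136, adjusted p = 0.271). ADAM9, a widely expressed sheddase, was at 112, 117 and 84.6 FPKM in controls and 82.5, 91.2 and 81.1 FPKM in the 3 dpi knockdown (log2 fold change -0.29, SE 0.115, adjusted p = 0.630). ADAM15, which carries an integrin-binding motif, was at 97.5, 98.0 and 121 FPKM in controls and 126, 121 and 118 FPKM in the 3 dpi knockdown (log2 fold change 0.21, SE 0.0896, adjusted p = 0.673). In both ADAM9 and ADAM15 the third control library lay inside the range of the 3 dpi knockdown, apart from the other two. Without that library the adjusted p was 0.0145 for MMP15, 0.0104 for ADAM9 and 0.0133 for ADAM15, with log2 fold changes of 0.76, -0.43 and 0.31. In that fit 3 members passed the FDR alone, against 6.34% of all genes (986 genes), and 0 members passed both thresholds. With any other library left out, 0 members passed the FDR alone. ADAM8, best known from leukocytes, was at 0.214, 0.265 and 0.324 FPKM in controls and 0.618, 0.665 and 0.424 FPKM in the 3 dpi knockdown (log2 fold change 0.85, SE 0.230, adjusted p = 0.473, and 0.0517 without the same library).

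By 7 dpi a subset of these genes had changed, in both directions. Between 7 and 3 dpi of knockdown, 12 of the 41 tested members passed, against 14.2% of all genes. Of these 7 were higher (MMP2, TIMP1, ADAM23, ADAM28, ADAMTS9, ADAMTS14 and ADAMTS19), against 8.31% of all genes, and 5 were lower (TIMP4, ADAM9, ADAM12, ADAM19 and ADAMTS15), against 5.90%. The median log2 fold change over the 41 was -0.0023, beside 0.092 over all tested genes. The FDR alone was passed by 11 higher and 6 lower members, against 35.8% of all genes in either direction, and the 2 groups did not overlap for 30 of the 41, against 62.3%. The 41 include ADAMTS19, which reached the expression minimum only through the 7 dpi knockdown, so that these counts describe the tested members and not the whole family. In such bulk libraries fewer cells that express a gene and less RNA per cell cannot be told apart.

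**Figure D1:**
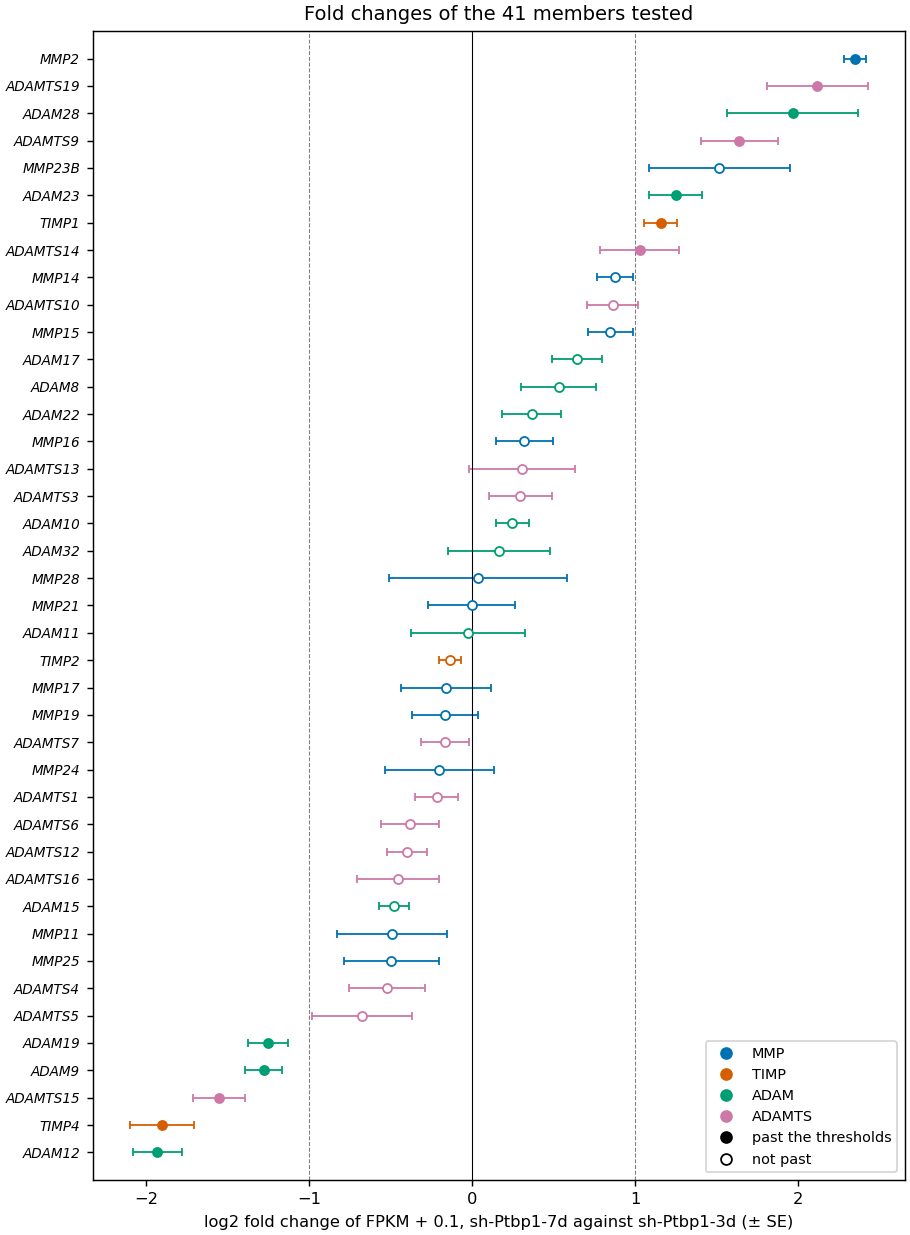
Log2 fold change of FPKM + 0.1 between 7 and 3 dpi (x axis) for each of the 41 tested members (y axis, ordered by fold change). Points are limma coefficients, bars their standard errors, colours the 4 gene classes, filled points the 12 members past both thresholds, and dashed lines the fold threshold of 2. Values run from 2.35 for MMP2 to -1.93 for ADAM12.

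Levels added up within each class showed where the RNA of the family lay. The summed MMP level was 49.8 ± 3.95 FPKM in controls, 53.1 ± 1.81 FPKM in the 3 dpi knockdown and 174 ± 4.05 FPKM at 7 dpi (SD, n = 3 each), and the share of MMP2 in it went from 49.1% and 47.1% to 73.2%. The summed TIMP level was 173 ± 3.22, 180.0 ± 1.30 and 271 ± 29.9 FPKM in the same order. The summed ADAM level was 269 ± 9.13, 264 ± 9.09 and 166 ± 5.93 FPKM. For MMP and TIMP genes each 7 dpi library was above, and for ADAM genes below, all 6 libraries of 3 dpi. The summed ADAMTS level was 21.95 ± 0.660, 22.3 ± 1.16 and 21.5 ± 1.30 FPKM, with overlapping groups, although 4 ADAMTS genes passed the thresholds. Within a library the TIMP sum was 3.48 ± 0.283 times the MMP sum in controls, 3.39 ± 0.112 times in the 3 dpi knockdown and 1.56 ± 0.210 times at 7 dpi (SD, n = 3 each), a ratio that does not depend on the scaling of the libraries. The sums are descriptions and were not tested.

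**Figure D2:**
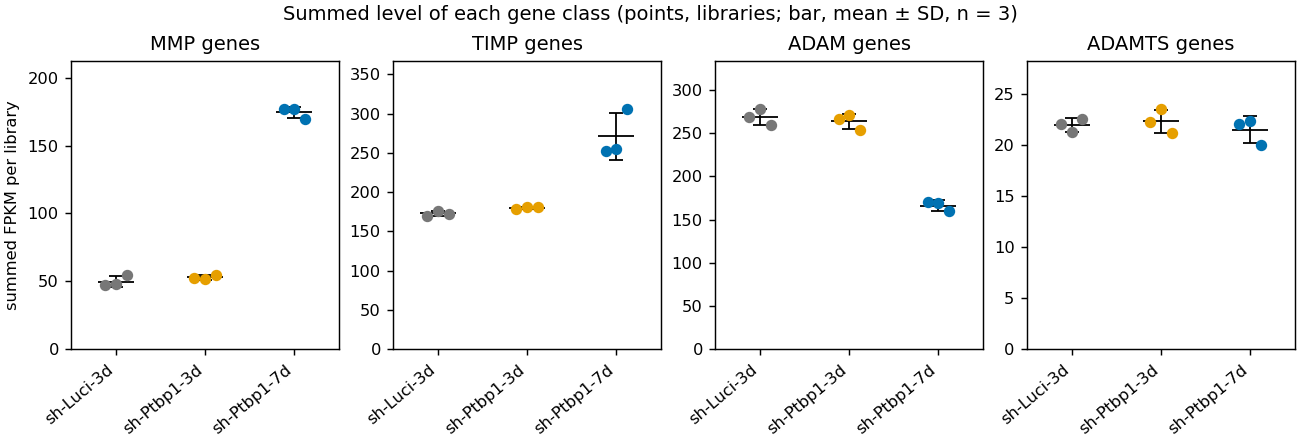
Summed FPKM of the MMP, TIMP, ADAM and ADAMTS genes (y axes, starting at 0) in each library of controls, 3 dpi knockdown and 7 dpi knockdown (x axis). Points are libraries, horizontal bars group means and error bars the SD of 3 libraries. The 7 dpi libraries lie at 170 to 177 FPKM for MMP and 159 to 170 FPKM for ADAM genes, apart from the 3 dpi libraries, and overlap them for ADAMTS.

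Among the MMPs, 1 of 12 tested genes rose between 3 and 7 dpi, a share near the 8.31% of all genes, and 0 fell, against 5.90%. MMP2 (chromosome 16 from 55389700 to 55506691), the secreted gelatinase that cuts denatured and basement membrane collagen, was at 24.6, 23.5 and 25.3 FPKM in controls, 24.5, 24.3 and 26.1 FPKM in the 3 dpi knockdown and 129, 126 and 128 FPKM at 7 dpi. The libraries of 3 dpi were interleaved and those of 7 dpi lay far above them. The mean rose 5.11-fold, a log2 fold change of 2.35 (SE 0.068, adjusted p = 3.21e-09). Between the 3 dpi knockdown and the controls its log2 fold change was 0.03 (adjusted p = 0.937).

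The membrane-type MMPs were all expressed above the minimum, and 2 of 6 passed the FDR without the fold threshold, a share near the 35.8% of all genes that passed the FDR alone. MMP14 (chromosome 14 from 22836557 to 22849027), which activates pro-MMP2 at the cell surface with TIMP2 as an adaptor, was at 15.7, 16.9 and 20.2 FPKM in controls, 19.5, 18.9 and 19.3 FPKM in the 3 dpi knockdown and 37.3, 38.5 and 31.1 FPKM at 7 dpi. All 7 dpi libraries were above those of 3 dpi. Its log2 fold change from 3 dpi was 0.88 (SE 0.110, adjusted p = 7.7e-05), under the fold threshold. MMP15 (chromosome 16 from 58025566 to 58046901) had levels of 4.14, 4.85 and 4.18 FPKM at 7 dpi, a log2 fold change of 0.85 from 3 dpi (SE 0.136, adjusted p = 0.000435). With the 3 dpi values given above, the 3 groups of MMP15 followed each other without overlap. For MMP16, MMP17, MMP24 and MMP25 the log2 fold changes were 0.32, -0.16, -0.20 and -0.49, with adjusted p between 0.155 and 0.659. MMP24 shares 18.1% of its exonic bases with MMP24OS on the opposite strand, which was at 52.0, 52.2 and 29.2 FPKM (means of controls, 3 dpi knockdown and 7 dpi knockdown), and how the counting treated strand is not stated.

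Of the other MMPs, MMP23B was at 0.028, 0.280 and 0.355 FPKM in controls, 0.165, 0.349 and 0.245 FPKM in the 3 dpi knockdown and 0.819, 0.883 and 0.964 FPKM at 7 dpi. The 7 dpi libraries were highest, and the log2 fold change of 1.52 from 3 dpi (SE 0.433, adjusted p = 0.0137) did not pass the FDR. MMP23B is nearly identical to the neighbouring MMP23A, so reads may be split between them and its values are uncertain. MMP11, MMP19, MMP21 and MMP28 had log2 fold changes between -0.49 and 0.04 and did not pass.

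The inhibitors moved in different directions. TIMP1 (chromosome X from 47582313 to 47586789), a broad inhibitor of secreted MMPs that acts poorly on membrane-type MMPs, was at 75.3, 79.5 and 84.1 FPKM in controls, 81.6, 82.1 and 83.2 FPKM in the 3 dpi knockdown and 167, 170.0 and 218 FPKM at 7 dpi. Every 7 dpi library was above those of 3 dpi, with the third highest. Its mean rose 2.25-fold (log2 fold change 1.16, SE 0.101, adjusted p = 5.55e-06). TIMP4 (chromosome 3 from 12153051 to 12159351), an inhibitor with restricted expression that includes brain, was at 4.68, 4.35 and 4.33 FPKM in controls, 4.80, 4.64 and 4.41 FPKM in the 3 dpi knockdown and 0.862, 1.06 and 1.70 FPKM at 7 dpi. The 7 dpi libraries were the lowest and the log2 fold change was -1.90 (SE 0.197, adjusted p = 1.91e-05).

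TIMP2 (chromosome 17 from 78852977 to 78925387), the adaptor of MMP14 and an MMP2 inhibitor, did not pass. It was at 88.8 ± 4.79, 93.1 ± 0.907 and 84.8 ± 0.930 FPKM in controls and at 3 and 7 dpi of knockdown (SD, n = 3 each), with a log2 fold change from 3 dpi of -0.13 (95% interval -0.28 to 0.01, adjusted p = 0.121). The balance within the trio differed between time points. MMP2 was 0.276 ± 0.025 times TIMP2 in controls, 0.269 ± 0.011 times in the 3 dpi knockdown and 1.51 ± 0.021 times at 7 dpi, and 1.41 ± 0.155, 1.30 ± 0.0485 and 3.62 ± 0.441 times MMP14 (SD, n = 3 each, not tested). On the opposite strand, TIMP4 shares 10.3% of its exonic bases with SYN2, whose mean was at most 0.0427 FPKM, and TIMP1 lies inside SYN1 with 0 shared exonic bases.

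**Figure D3:**
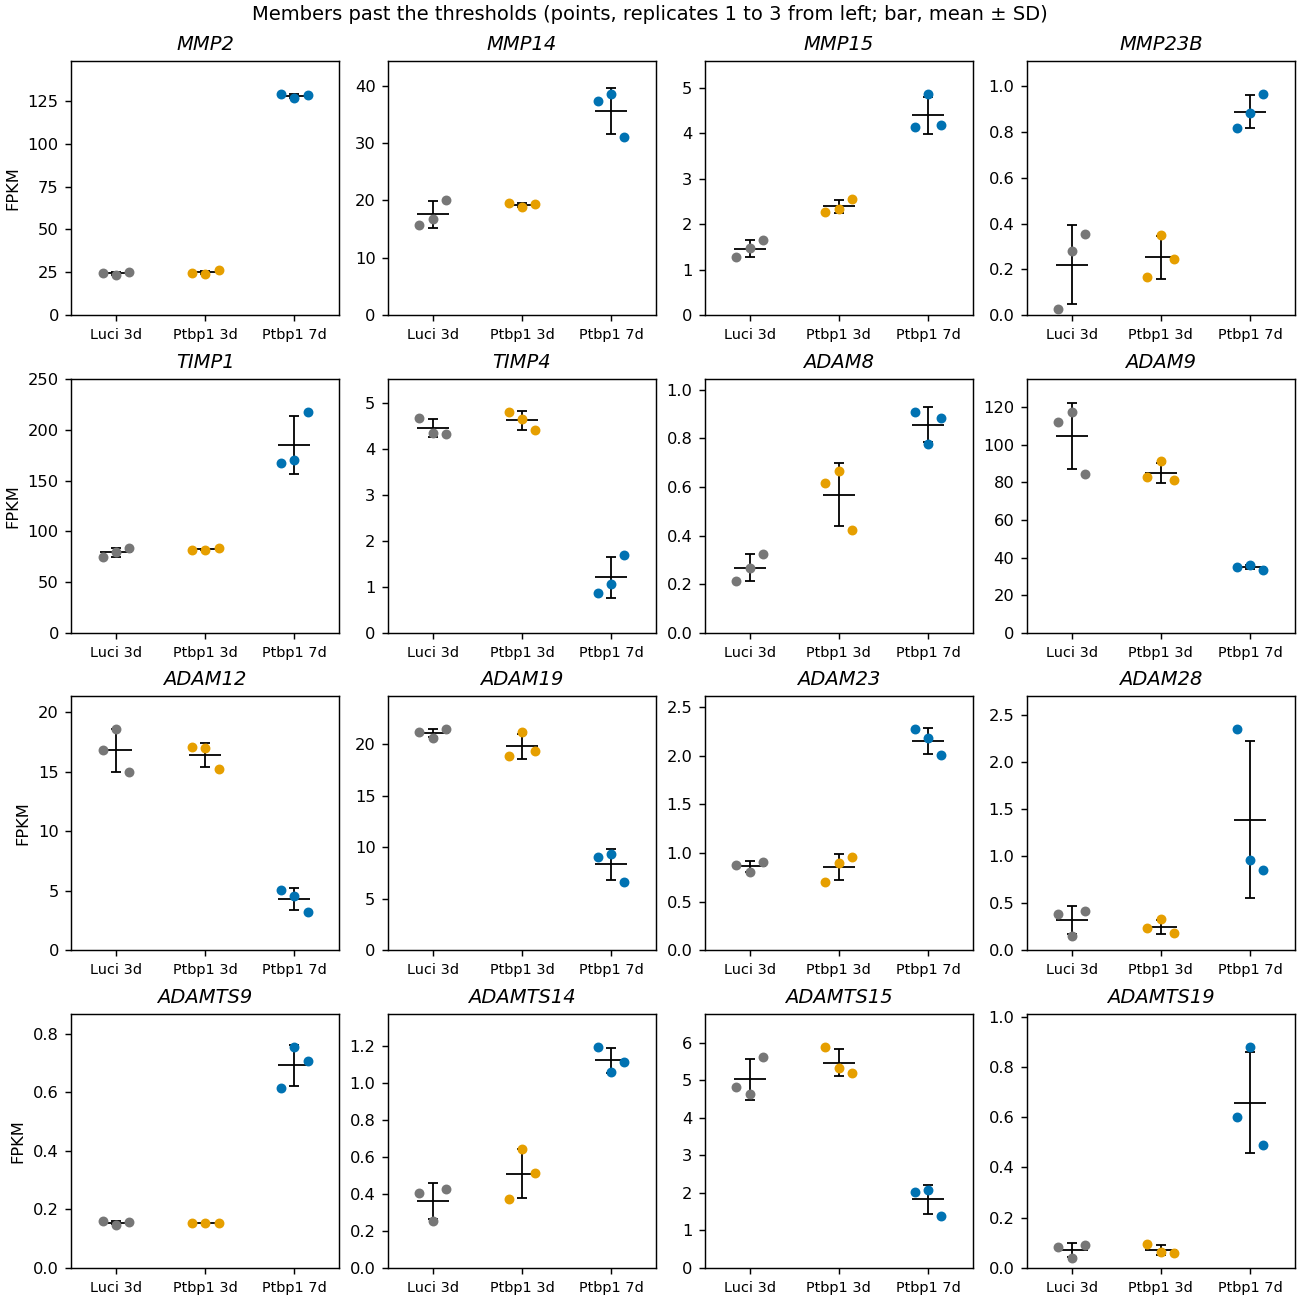
FPKM (y axes, starting at 0) of the 16 members past both thresholds in at least 1 comparison, in the libraries of controls, 3 dpi knockdown and 7 dpi knockdown (x axis). Points are replicates 1 to 3 from left to right, horizontal bars means and error bars the SD of 3 libraries. MMP2 stands at 126 to 129 FPKM at 7 dpi, above 23.5 to 26.1 FPKM at 3 dpi, while TIMP4, ADAM9, ADAM12, ADAM19 and ADAMTS15 are lowest at 7 dpi.

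Of the 8 tested ADAM genes with an intact zinc-binding motif, 3 fell (5.90% of all genes) and 1 rose (8.31% of all genes) between 3 and 7 dpi. All 8 had groups without overlap, against 62.3% of all genes. ADAM9 was at 35.2, 36.0 and 33.6 FPKM at 7 dpi, below every library of 3 dpi, and its mean in the 3 dpi knockdown was 85.0 ± 5.44 FPKM (SD, n = 3). The log2 fold change was -1.28 (SE 0.115, adjusted p = 6.96e-06). ADAM12 (chromosome 10 from 126012381 to 126388455), or meltrin alpha, a sheddase known from muscle precursors and from tumours, was at 16.8, 18.5 and 14.95 FPKM in controls, 17.0, 17.0 and 15.2 FPKM in the 3 dpi knockdown and 5.04, 4.59 and 3.26 FPKM at 7 dpi. It fell by 1.93 on the log2 scale (SE 0.151, adjusted p = 2.45e-06), close to TIMP4. ADAM19 (chromosome 5 from 157395534 to 157575775), or meltrin beta, which can shed neuregulin, was at 21.2, 20.6 and 21.5 FPKM in controls, 18.9, 21.2 and 19.3 FPKM in the 3 dpi knockdown and 9.05, 9.39 and 6.63 FPKM at 7 dpi. It fell by 1.25 on the log2 scale (SE 0.123, adjusted p = 1.33e-05). The promoter windows of ADAM12 and ADAM19 printed above hold 3 and 0 GC boxes.

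The classical sheddases ADAM17 and ADAM10 were not among the falling genes. ADAM17 (chromosome 2 from 9488486 to 9556732), which releases TNF and ligands of the EGF receptor, was at 11.5 ± 2.44, 11.1 ± 0.540 and 17.5 ± 2.39 FPKM in controls and at 3 and 7 dpi of knockdown (SD, n = 3 each). Its log2 fold change from 3 dpi was 0.64 (SE 0.153, adjusted p = 0.00524), past the FDR and under the fold threshold. It shares 12.3% of its exonic bases with IAH1 on the opposite strand, which was at means of 11.6, 12.6 and 9.02 FPKM. ADAM10 (chromosome 15 from 58588807 to 58749978), which cuts Notch receptors and the amyloid precursor protein, was at 5.61 ± 0.558, 5.50 ± 0.224 and 6.55 ± 0.314 FPKM, with a log2 fold change of 0.25 (95% interval 0.02 to 0.48, adjusted p = 0.0692). ADAM15 (chromosome 1 from 155050566 to 155062775) had levels of 86.6, 86.5 and 88.5 FPKM at 7 dpi and was the ADAM with the highest level there. It was lower than at 3 dpi by a log2 fold change of -0.48 (SE 0.0896, adjusted p = 0.0012), past the FDR and under the fold threshold.

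Of the rising ADAM genes, ADAM28 was at 0.391, 0.151 and 0.422 FPKM in controls, 0.233, 0.329 and 0.190 FPKM in the 3 dpi knockdown and 2.35, 0.962 and 0.849 FPKM at 7 dpi. The first 7 dpi library was far above the other two, and the log2 fold change was 1.97 (SE 0.401, adjusted p = 0.00207). When the third library of the 3 dpi knockdown was left out ADAM28 no longer passed, and its adjusted p ranged from 0.00125 to 0.0155 over the alternatives. ADAM23 (chromosome 2 from 206443539 to 206621130), which lacks the zinc-binding motif and binds the neuronal protein LGI1, was at 0.874, 0.802 and 0.910 FPKM in controls, 0.705, 0.898 and 0.957 FPKM in the 3 dpi knockdown and 2.27, 2.18 and 2.003 FPKM at 7 dpi. It rose by a log2 fold change of 1.25 (SE 0.164, adjusted p = 0.000108). Among 4 tested ADAMs without the motif, ADAM23 alone rose (8.31% of all genes) and 0 fell (5.90% of all genes), too few to set apart from these shares. ADAM22, a related LGI1 receptor, was at 1.41 ± 0.134, 1.62 ± 0.292 and 2.11 ± 0.368 FPKM and did not pass (log2 fold change 0.37, adjusted p = 0.117). Beside this, the 6 neuronal markers examined summed to 265 to 316 FPKM in controls, 335 to 345 FPKM in the 3 dpi knockdown and 158 to 165 FPKM at 7 dpi. This was mostly through TUBB3, while MAP2 was at means of 20.3 and 38.9 FPKM at 3 and 7 dpi of knockdown. SNAP25 was at means of 1.27, 2.68 and 4.32 FPKM in the 3 groups (log2 fold change against controls 1.69 at 7 dpi, adjusted p = 9.16e-05). DCX reached 2.14 FPKM in the third library of the 3 dpi knockdown and at most 0.0346 FPKM elsewhere. The part of these neuronal marker changes in the ADAM23 level was not tested. ADAM8 was at 0.910, 0.775 and 0.885 FPKM at 7 dpi, with a log2 fold change of 0.53 from 3 dpi (SE 0.230, adjusted p = 0.0767).

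Of 14 tested ADAMTS genes, 3 rose (8.31% of all genes), among them ADAMTS19 with its entry through the 7 dpi values, and 1 fell (5.90% of all genes). ADAMTS15 (chromosome 11 from 130448974 to 130476641), which cuts the proteoglycans versican and aggrecan, was at 4.81, 4.62 and 5.63 FPKM in controls, 5.89, 5.33 and 5.20 FPKM in the 3 dpi knockdown and 2.02, 2.08 and 1.39 FPKM at 7 dpi. It fell by 1.55 on the log2 scale (SE 0.158, adjusted p = 1.68e-05). ADAMTS9 (chromosome 3 from 64515654 to 64688000), another versican-cleaving enzyme, was at 0.159, 0.148 and 0.157 FPKM in controls, 0.154, 0.153 and 0.154 FPKM in the 3 dpi knockdown and 0.615, 0.756 and 0.706 FPKM at 7 dpi (log2 fold change 1.64, SE 0.235, adjusted p = 0.000199). These 2 proteoglycan-cleaving genes thus changed in opposite directions, and the other 3 tested (ADAMTS1, ADAMTS4 and ADAMTS5) did not pass, with log2 fold changes of -0.22, -0.52 and -0.68.

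ADAMTS14 (chromosome 10 from 70672803 to 70762441), a procollagen N-proteinase, was at 0.405, 0.252 and 0.429 FPKM in controls, 0.374, 0.641 and 0.511 FPKM in the 3 dpi knockdown and 1.19, 1.06 and 1.11 FPKM at 7 dpi. The log2 fold change of 1.03 (SE 0.242, adjusted p = 0.00486) was just above the fold threshold and was lost in 10 of 19 alternatives. ADAMTS19 (chromosome 5 from 129460265 to 129738683) had levels of 0.084, 0.041 and 0.091 FPKM in controls, 0.093, 0.063 and 0.058 FPKM in the 3 dpi knockdown and 0.601, 0.880 and 0.491 FPKM at 7 dpi (log2 fold change 2.12, SE 0.308, adjusted p = 0.000223). The means differed 9.22-fold, but the 3 dpi values are near 0 and their depth is unknown. The ADAMTS gene with the highest level at 7 dpi was ADAMTS10 (chromosome 19 from 8580242 to 8610735), which binds fibrillin, at 7.34 ± 0.0911 FPKM against 4.01 ± 0.579 FPKM in the 3 dpi knockdown (SD, n = 3 each, log2 fold change 0.86, SE 0.156, adjusted p = 0.000978). The other ADAMTS genes tested, with ADAMTS12 highest at 2.72 ± 0.295 FPKM at 7 dpi, had log2 fold changes between -0.45 and 0.31 and did not pass.

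Against the controls, 16 members passed at 7 dpi, against 14.6% of all genes. This comparison shares the 7 dpi libraries with the one between 7 and 3 dpi. There were 11 members higher (8.93% of all genes) and 5 lower (5.68%). The FDR alone was passed by 13 higher and 6 lower members, against 35.6% of all genes in either direction, and the groups did not overlap for 25 of the 41, against 55.9%. The 12 genes above all passed with the same direction, and MMP14, MMP15, MMP23B and ADAM8 passed in addition. MMP15 had a log2 fold change of 1.53 (SE 0.136, adjusted p = 6.38e-06) and ADAM8 of 1.39 (SE 0.230, adjusted p = 0.000529). MMP14 stood at 1.02 (SE 0.110, adjusted p = 2.64e-05), just over the fold threshold, and lost its call in 7 of 20 alternatives. Its log2 fold change ranged from 0.92 to 1.12 over the 20. Leaving out the first or second library of either the controls or the 7 dpi knockdown was among the 7. MMP23B (1.81, SE 0.433, adjusted p = 0.00522) lost its call in 9 of 19. ADAM28 lost this call in 6 of 19, among them without the second control library and without the first 7 dpi library, and its adjusted p ranged from 0.0033 to 0.0242.

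The surroundings of these enzymes were followed in a list of 60 genes that activate, inhibit, assist, are related to or serve as substrates of metalloproteinases, of which 44 were tested. Between the 3 dpi knockdown and the controls, 0 of the 44 passed, against 0.0129% of all genes, and 6 had an unadjusted p under 0.05, against 7.24%. Between 7 and 3 dpi of knockdown, 7 rose, against 8.31% of all genes, and 5 fell, against 5.90%. The median log2 fold change was -0.18 over the 44, beside 0.092 over all tested genes. CX3CL1 reached the expression minimum only through the 7 dpi knockdown, so that the 7 include a gene that had to differ. The list was chosen with earlier results of these data known.

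In the plasminogen activator system, whose protease plasmin can activate pro-MMPs, 1 of 4 tested genes rose (8.31% of all genes) and 1 fell (5.90%). PLAUR (log2 fold change 0.47, adjusted p = 0.00117) and PLAT (-0.69, adjusted p = 5.8e-05) passed the FDR and not the fold threshold. SERPINE2, or protease nexin 1, an inhibitor of serine proteases, was at 17.0, 17.8 and 17.2 FPKM in controls, 14.4, 15.3 and 15.2 FPKM in the 3 dpi knockdown and 76.8, 81.0 and 81.6 FPKM at 7 dpi (log2 fold change 2.41, SE 0.0697, adjusted p = 3.21e-09). PLAU, the urokinase, fell by 1.30 on the log2 scale (adjusted p = 7.75e-07), from 43.5 ± 2.35 FPKM to 17.6 ± 1.70 FPKM (SD, n = 3 each).

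Among further inhibitors and binders, A2M, the broad protease trap alpha-2-macroglobulin, was at 0.0896 ± 0.0546 FPKM in the 3 dpi knockdown and 2.47 ± 0.221 FPKM at 7 dpi (SD, n = 3 each, log2 fold change 3.80, adjusted p = 2.5e-06). THBS1, a matrix protein that binds MMP2, fell by 1.83. RECK, a membrane-anchored MMP inhibitor, and BSG, known as an inducer of MMPs, did not pass (log2 fold changes -0.21 and 0.13). Of 4 proprotein convertases, which remove the propeptides of MMPs and ADAMs, PCSK5 rose by a log2 fold change of 1.03 (adjusted p = 0.00107), and FURIN had -0.67, past the FDR and not the fold threshold. The PCSK5 call was lost in 5 of 20 alternatives. These were a pseudocount of 1, median-ratio scaling, quantile normalization, and leaving out sh-Ptbp1-3d replicate 2 or sh-Ptbp1-7d replicate 1.

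Partners and substrates of the sheddases also differed. RHBDF2, or iRhom2, which carries ADAM17 to the cell surface, was at 7.88, 8.11 and 7.25 FPKM in the 3 dpi knockdown and 20.9, 21.7 and 22.5 FPKM at 7 dpi (log2 fold change 1.47, adjusted p = 1.66e-06), whereas RHBDF1 had a log2 fold change of -0.27 and did not pass. Of 6 tetraspanins that accompany ADAM10, TSPAN15 fell by 1.10 and the others did not pass. TGFA, an EGF receptor ligand released by ADAM17, was at 4.03, 3.94 and 2.82 FPKM in the 3 dpi knockdown and 40.4, 37.4 and 32.0 FPKM at 7 dpi (log2 fold change 3.32, SE 0.150, adjusted p = 5.06e-08). CX3CL1, a chemokine shed by ADAM10 and ADAM17, was at 0.0390 ± 0.0243 FPKM and 1.30 ± 0.101 FPKM (SD, n = 3 each, log2 fold change 3.34). CD44 and JAG1, which ADAMs also cut, fell by 1.41 and 1.02. TNC, a matrix protein cut by MMPs, rose by a log2 fold change of 1.61 with 91.9, 81.2 and 59.6 FPKM at 7 dpi. The JAG1 call was lost in 3 of 20 alternatives, which were a pseudocount of 1, TPM, and leaving out sh-Ptbp1-7d replicate 3. The TSPAN15 call was lost with a pseudocount of 1.

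**Figure D4:**
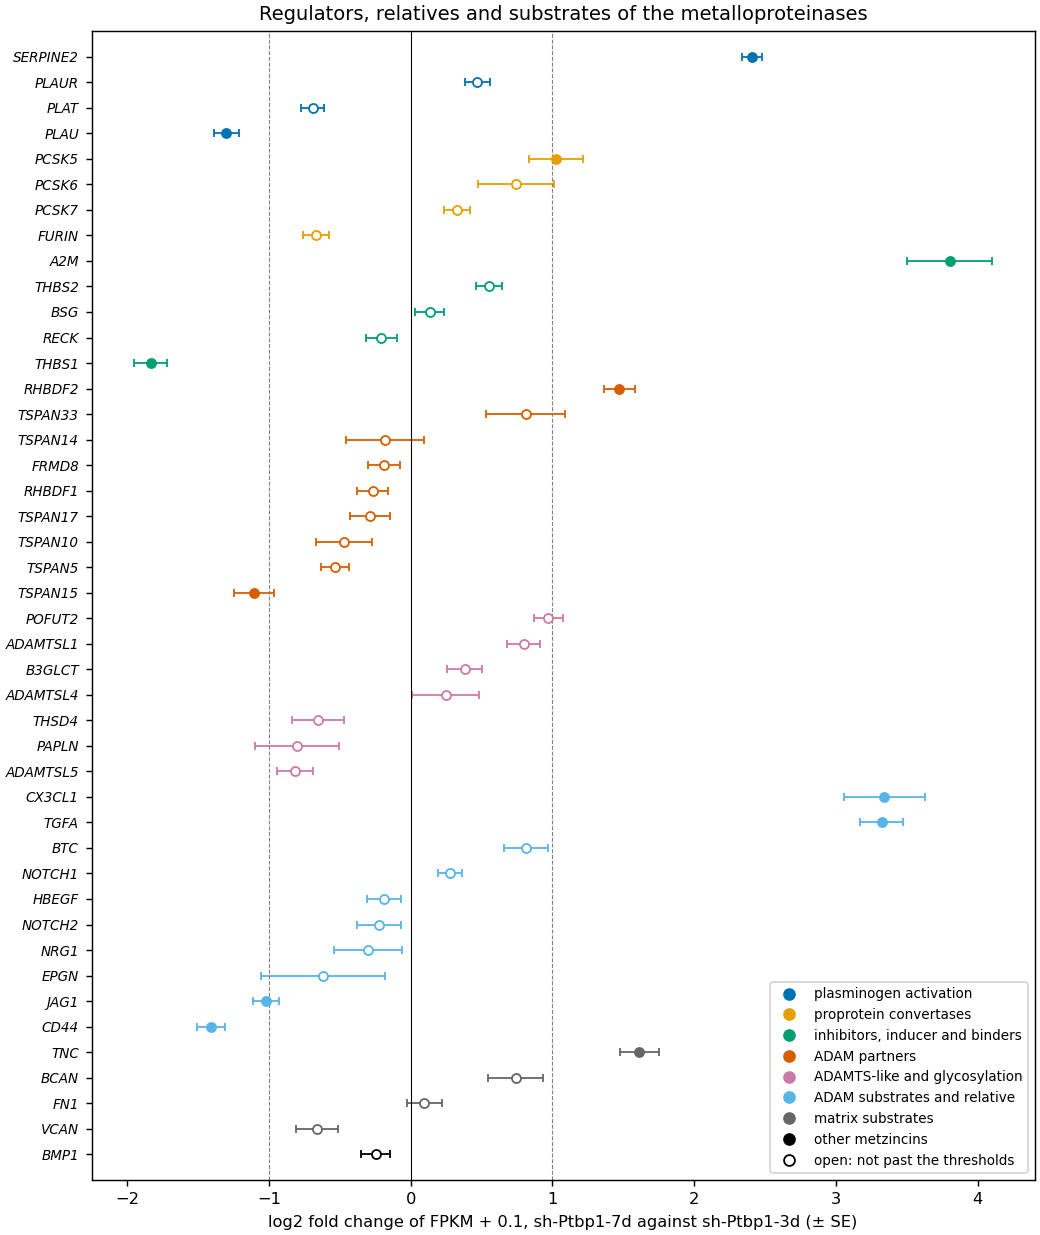
Log2 fold change of FPKM + 0.1 between 7 and 3 dpi (x axis) for the 44 tested genes of the list of regulators, relatives and substrates (y axis, grouped by role and ordered by fold change). Points are limma coefficients, bars standard errors, filled points the 12 genes past both thresholds, and dashed lines the fold threshold of 2. A2M, CX3CL1 and TGFA lie above 3 and THBS1 at -1.83.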

How the data were processed

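RNA of U251 cells was sequenced on Illumina HiSeq by the authors, in 9 libraries that were grouped by their labels into controls, 3 dpi knockdown and 7 dpi knockdown (n = 3 each). The authors filtered the reads, aligned them and deposited FPKM per gene and library for 19932 gene symbols and 2363 assembled loci. The submitters' processing notes name HISAT2 and GRCh38, and the counting program and its treatment of strand are not given in the sources used here. A second deposited table holds the exon coordinates of the assembled loci, of another kind of value, and was used to check the genome build (49.6% of 43315 exons equal a GENCODE v29 exon at both ends). FPKM were not in steps of whole reads, so depth is unknown and tests for counts were not used.

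From these values log2(FPKM + 0.1) was computed for 15551 genes whose mean reached 0.1 FPKM. One limma model (version 3.58.1, R 4.3.3) held the 3 groups, with an intensity trend and no covariates. A pseudocount makes the fold change of low genes too small. The Benjamini-Hochberg adjustment ran over all tested genes, and the fitting code was tested on simulated data. An exact permutation test of 3 against 3 libraries has 0.1 as its smallest two-sided p and was not used. The members and gene lists were chosen with earlier results of these data known.

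Members past both thresholds in any comparison and at 0.5 FPKM or more in some group mean were described by library, other members reaching 5 FPKM by group, and the rest by counts and ranges. Regulators past the thresholds between 7 and 3 dpi were named, and 1 gene of that list is not reported here and was left out of its counts. MMP7, the other membrane-type MMPs and ADAMTS genes, TIMP3, ADAM22, RECK, BSG, FURIN and RHBDF1 were named outside these rules, after their values had been seen. Positions of all 66 members were taken from GENCODE v29. Alternatives were other pseudocounts, filters and normalizations, the assembled loci and mitochondrial genes left out, a fit of the 2 groups compared, no trend, a replicate block, and leaving out each library in turn. Figures were drawn with matplotlib 3.10.9.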

Additional observations from a re-analysis of the deposited data

How the results depend on the processing

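Of the 12 members called between 7 and 3 dpi, 7 (MMP2, TIMP1, TIMP4, ADAM9, ADAM12, ADAM19 and ADAMTS15) passed in every alternative that could test them, and against controls 8 of 16 did (the same 7 and MMP15). With a pseudocount of 1 the counts were 7 and 8, since the fold of weakly expressed genes shrinks, and with a minimum mean of 1 FPKM 10 passed against controls, since fewer genes are tested. Leaving out one library gave 10 to 13 members between 7 and 3 dpi, 13 to 17 against controls, 0 between the 3 dpi knockdown and the controls, and 11 to 13 listed regulators between 7 and 3 dpi. ADAM23, ADAMTS9 and ADAMTS19 lost their call with a pseudocount of 1, and ADAM28 with a pseudocount of 1 and with no filter. TIMP2 against controls changed from -0.065 to 0.015 on the log2 scale with TPM, without passing in either.

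The replicate numbers did not pair the samples: same-number correlations lay between -0.032 and 0.051, and 1 library correlated best with its own number. With the replicate block the counts were 12 and 16 members and 12 and 12 regulators, as without it, and 0 between the 3 dpi knockdown and the controls. ADAMTS14 lost and MMP23B gained a call between 7 and 3 dpi under it.

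Scaling shifted the median log2 fold change of all genes between 7 and 3 dpi from 0.092 to 0.195 with TPM, 0.010 with median-ratio scaling and -0.0087 with quantile normalization. The ratio of the MMP sums of these groups was 3.29, with 3.52 in TPM and 3.09 after median-ratio scaling, and that of the ADAM sums 0.631, with 0.677 and 0.594. Against sh-Luci-3d the ADAM ratio was 0.618, with 0.654 and 0.577, and the ADAMTS ratio 0.978, with 0.911 after median-ratio scaling. The ADAMTS ratio of sh-Ptbp1-7d to sh-Ptbp1-3d lay at 0.963, and at 1.03 with TPM, so that it has no firm direction. The unknown depth limits all members below about 1 FPKM.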
